A study of Homo sapiens with 15 samples.

Results

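Open chromatin around 33 genes of the tight junction was examined in HPAF-II, an epithelial line established from a human pancreatic adenocarcinoma. The genes were 20 claudins, 3 MARVEL proteins (OCLN, MARVELD2 and MARVELD3), 4 adhesion molecules (F11R, JAM2, JAM3 and CXADR), 4 scaffolds of the junctional plaque (TJP1, TJP3, CGN and CGNL1) and 2 polarity proteins (PARD3 and PARD6B). Peaks of every library were joined into regions wherever they overlapped by at least 1 bp. Of 222814 such regions, 608 lay inside one of the 33 genes or within 50 kb of either end of it. Claudin genes accounted for 277 of these regions and the other 13 genes for 331. Some regions served a pair of genes: 53 lay near 2 or more of them, with 21 shared by CLDN1 and CLDN16, 18 by CLDN6 and CLDN9, 8 by CLDN3 and CLDN4, and 6 by MARVELD2 and OCLN.

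Tight junctions seal the space between neighbouring epithelial cells and separate the apical from the basolateral membrane. Claudins are membrane proteins with 4 spans that polymerise into strands, and each tissue expresses its own mixture of barrier-forming and pore-forming claudins. Occludin and its MARVEL relatives lie in the same strands, the JAM proteins and CXADR are adhesion molecules of the immunoglobulin family, ZO proteins (TJP genes) and cingulins tie the strands to actin, and the PAR proteins set cell polarity. Ductal cells of the pancreas, which such carcinomas resemble, carry tight junctions of this kind.

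The cells received 1 µM Lgk974 or its solvent DMSO for 24 h or 48 h; no other agent or genetic change is named in the labels. Every library is labelled HPAF-II, although the growth protocol attached to the samples also describes KATO III cells. Lgk974 blocks porcupine, an acyltransferase that WNT ligands need for secretion, so the comparison asks how chromatin near these genes differs when WNT secretion is inhibited. ATAC-seq, which inserts adapters into accessible DNA by transposition, gave 1 peak list per library: 4 with DMSO and 4 with Lgk974 at 24 h, and 4 with DMSO and 3 with Lgk974 at 48 h. No source says whether replicates were grown separately, so every p-value here refers to the spread of these samples only, and that spread may be technical. The lists held from 53610 to 127886 peaks, the shortest being Lgk974 24 h replicate 3 (53610) and Lgk974 48 h replicate 3 (57708). DMSO 24 h replicate 3 had the longest list and shared least with the others, with a mean Jaccard overlap of 0.376 against 0.478 to 0.656 for the rest. Read counts were not used here, the depth is unknown, and a region without a peak may be open below the threshold of that library. The label of an epithelial line was checked on marker genes: all 8 epithelial markers had a peak at an end in every library, against 1 of 6 mesenchymal markers (COL1A1), 0 of 5 endothelial markers and 2 of 5 leukocyte markers (CD14 and CD3E). The mesenchymal markers VIM and COL1A2 had a peak at an end in 13 and 11 libraries. PTPRC, PECAM1, VWF and KDR had a peak at an end in no library.

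The promoters below were chosen as examples of ends called in all, few or no libraries. Each line gives the 250 bases before a listed start, 5′ to 3′ on the strand of the gene, from RefSeq on GRCh38.p14. Capitals mark exact matches to 6 motifs searched on both strands: GGGCGG (SP/KLF), TGANTCA (AP-1), CTTTGAT (TCF/LEF), AACCNGTT (grainyhead-like), CAAAGTCCA (HNF4) and TTTATGG (CDX). CLDN3 and CLDN4, chosen as neighbours that were called in all 15 libraries, lie at chr7:73770271-73770520 (minus strand) and chr7:73830746-73830995 (plus strand). TJP1 is shown at its outermost start, at chr15:29969050-29969299, which was called in few libraries, and at an inner start, at chr15:29821480-29821729, called in all of them (both minus strand). CLDN6 at chr16:3018184-3018433 and CLDN17 at chr21:30166806-30167055 (both minus strand) were called in none.
CLDN3: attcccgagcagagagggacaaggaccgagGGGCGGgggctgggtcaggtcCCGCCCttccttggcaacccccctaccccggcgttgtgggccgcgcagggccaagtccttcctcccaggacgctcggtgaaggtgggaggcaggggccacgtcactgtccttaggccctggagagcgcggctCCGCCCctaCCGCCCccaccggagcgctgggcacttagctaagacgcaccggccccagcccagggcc
CLDN4: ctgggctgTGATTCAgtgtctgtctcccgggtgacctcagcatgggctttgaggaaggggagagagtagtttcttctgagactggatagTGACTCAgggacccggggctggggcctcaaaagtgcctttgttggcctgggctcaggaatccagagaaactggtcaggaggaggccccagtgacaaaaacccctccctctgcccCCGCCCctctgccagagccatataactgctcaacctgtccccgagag
TJP1 outer start: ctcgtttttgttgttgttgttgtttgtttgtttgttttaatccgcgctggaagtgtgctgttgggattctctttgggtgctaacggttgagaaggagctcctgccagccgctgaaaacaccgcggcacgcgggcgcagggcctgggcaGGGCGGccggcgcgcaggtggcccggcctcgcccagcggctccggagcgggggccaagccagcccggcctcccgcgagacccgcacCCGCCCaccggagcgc
TJP1 inner start: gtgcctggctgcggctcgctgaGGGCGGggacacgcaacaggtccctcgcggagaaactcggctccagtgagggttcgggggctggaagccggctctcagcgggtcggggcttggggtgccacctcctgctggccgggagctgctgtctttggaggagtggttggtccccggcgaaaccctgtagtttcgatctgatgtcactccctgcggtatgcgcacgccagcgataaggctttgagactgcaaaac
CLDN6: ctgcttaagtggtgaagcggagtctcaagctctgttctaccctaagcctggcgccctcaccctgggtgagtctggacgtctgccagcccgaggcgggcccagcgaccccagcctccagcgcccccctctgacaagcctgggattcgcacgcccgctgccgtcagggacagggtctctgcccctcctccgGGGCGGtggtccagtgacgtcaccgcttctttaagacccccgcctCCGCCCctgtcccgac
CLDN17: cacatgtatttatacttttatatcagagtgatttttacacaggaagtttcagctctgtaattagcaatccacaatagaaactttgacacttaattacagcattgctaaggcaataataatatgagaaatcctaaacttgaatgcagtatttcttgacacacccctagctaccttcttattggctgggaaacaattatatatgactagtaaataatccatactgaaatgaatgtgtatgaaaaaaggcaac

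These stretches did not sort by motif. CLDN3 held 4 SP/KLF matches in 250 bases with 71.6% GC and 19 CpG dinucleotides, whereas CLDN4, equally open by calls, had 58.8% GC, 4 CpG, 1 SP/KLF match and 2 AP-1 matches, 242 and 161 bases before the start. The closed CLDN6 end had 68% GC, 18 CpG and 2 SP/KLF matches, close to CLDN3 in composition. The outer TJP1 start was GC-rich as well, with 66.8% GC and 26 CpG against 64.8% and 19 at the inner start. CLDN17 had 32% GC, 0 CpG and none of the 6 motifs.

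The promoter table listed starts for 21 of the 33 genes, as 33 windows of 300 bases (250 before and 50 after the start). The 11 windows that overlapped a peak in all 15 libraries had a median of 67% GC and 24 CpG. The 12 windows called in none had medians of 44.5% and 3.5, and the 35116 windows for all genes had 58.7% and 14. The highest medians, 70.7% and 35, were those of the 10 windows called in 1 to 14 libraries. GC and CpG content thus did not rise steadily with the number of calls. SP/KLF letters were found in 19 of the 33 windows (57.6%, against 45.0% of all windows) and AP-1 letters in 4 (12.1% against 7.71%), at CLDN2, CLDN4, CLDN15 and CLDN16. The grainyhead-like letters occurred in 1 window, that of CGN (3.03% against 1.73%). TCF/LEF, HNF4 and CDX letters occurred in 0 of the 33, against 2.62%, 0.384% and 2.54% of all windows. A match is a description of the letters and not evidence of binding.

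Peaks at gene ends divided the genes into an open and a closed set, where open and closed mean with and without a call. An end was called in a library where a peak lay within 1 kb of a listed start, or of either end of the gene where no start was listed. Of the 33 genes, 15 (45.5%) had a called end in all 15 libraries, 5 in 13 or 14, CLDN11 in 12, CLDN14 in 4, CLDN5 in 1 and 10 (30.3%) in none. Among 19974 protein-coding genes measured the same way, 54.8% were called in all 15 libraries and 20.1% in none.

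Of the 20 claudins, 7 were open at an end in every library: CLDN1, CLDN3, CLDN4, CLDN7, CLDN9, CLDN12 and CLDN23. CLDN1, CLDN3, CLDN4 and CLDN7 are classical epithelial claudins. The strength of a peak was described by its rank in the list of its library, as the percentile of the deposited −log10 q, a value of the authors' peak caller. CLDN3 had the strongest claudin end, with percentiles from 87.4 to 98.8 (median 94.5), followed by CLDN12 with 88.3 to 98.2 (median 93.7), CLDN23 with 82.6 to 96.4 (median 87.6) and CLDN7 with 61.0 to 88.6 (median 77.7). CLDN1 ranged from 44.7 to 83.9 (median 74.3) and CLDN4 from 57.6 to 73.3 (median 67.2). CLDN9 was called everywhere but with ranks from 9.06 to 86.2 (median 50.0). Neighbours in this order overlapped in their ranges.

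A further 3 claudins, with more specialised roles, were open in most libraries. CLDN2, a pore-forming claudin for cations and water, and CLDN10, a paracellular ion channel, had a peak in 8 of 8 DMSO libraries and 6 of 7 with Lgk974. The library without a call was Lgk974 48 h replicate 3 for both. CLDN11, known from myelin and the testis, had a peak in 7 of 8 DMSO libraries and 5 of 7 with Lgk974 (exact permutation p = 0.459), at a median percentile of 18.2. It was missing in DMSO 24 h replicate 1 and in the libraries with the 2 shortest lists.

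The other 10 claudins were closed at their ends or nearly so. CLDN14, known from the inner ear and kidney, had a peak in 2 libraries with DMSO and 2 with Lgk974 (exact permutation p = 0.743). CLDN5, the main claudin of endothelium, was called in Lgk974 48 h replicate 1 alone, at percentile 1.22. No library had a peak at the ends of CLDN6, CLDN8, CLDN15, CLDN16, CLDN17, CLDN19, CLDN20 and CLDN22. CLDN16 and CLDN19 act together in magnesium reabsorption in the kidney, CLDN15 forms pores in the intestine, and CLDN6 is a claudin of embryonic epithelia. CLDN8 and CLDN17 had 0 regions within 50 kb in any library. CLDN6 was unlike them, since 13 of its 19 surrounding regions were called in all 15 libraries, although its start was called in none.

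Among the remaining genes, all 3 MARVEL genes were open in 15 libraries, with median percentiles of 94.2 for OCLN, 91.3 for MARVELD2 (tricellulin, which seals corners where 3 cells meet) and 79.1 for MARVELD3. The adhesion molecules split: F11R, which encodes JAM-A, had the highest median of all 33 genes at 95.4 (91.7 to 99.3), and CXADR, the coxsackievirus and adenovirus receptor, had 74.8, while JAM2 and JAM3 had no call at either end. The scaffolds TJP1 and TJP3 had medians of 84.2 and 85.6. CGN and CGNL1, which encode cingulin and paracingulin, had a peak in 8 of 8 DMSO libraries and 5 of 7 with Lgk974 each, at medians of 26.1 and 31.5. CGN was missing in Lgk974 24 h replicates 1 and 3, and CGNL1 in Lgk974 24 h replicate 3 and 48 h replicate 3. PARD6B was called in all 15 (median 78.8), and PARD3 in 13, missing in DMSO 24 h replicate 4 and Lgk974 24 h replicate 3.

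**Figure D1:**
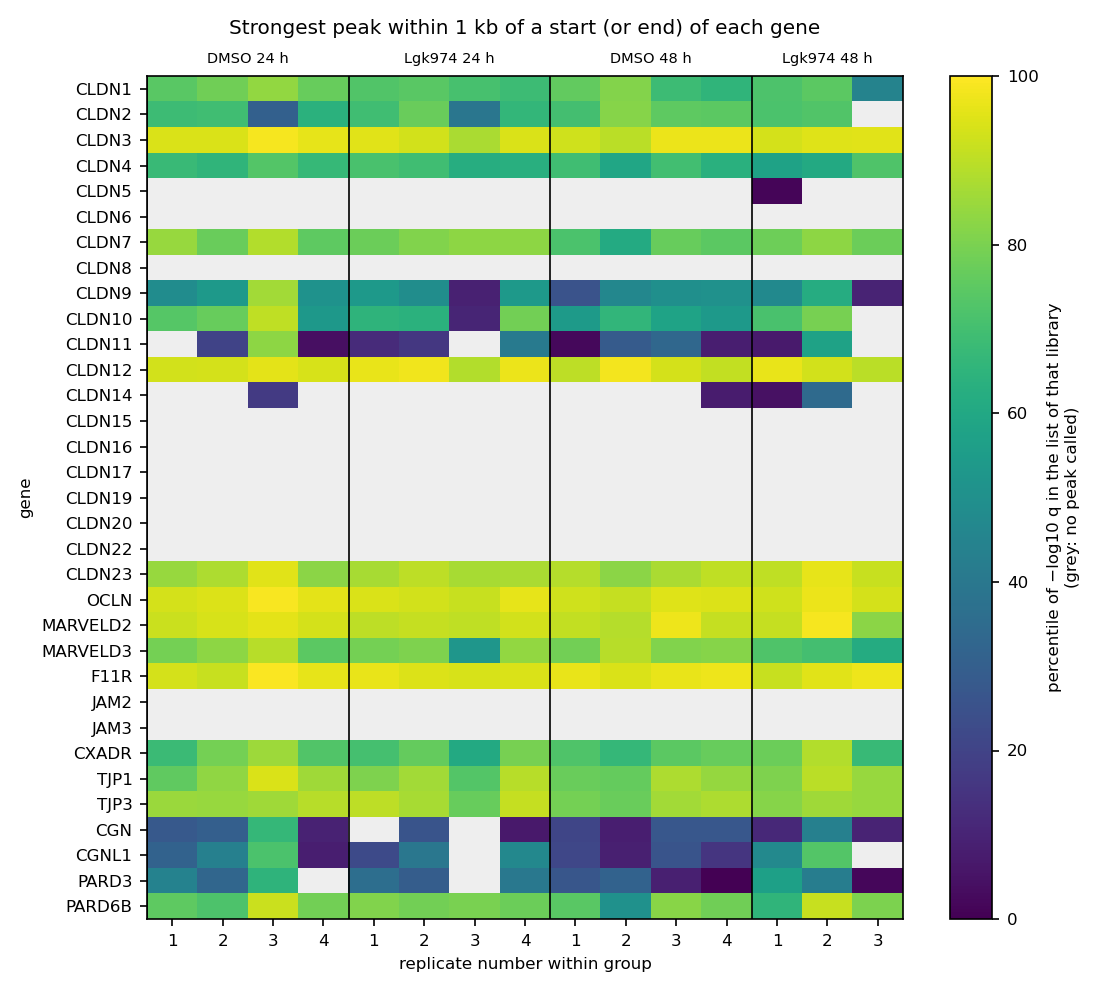
Rows are the 33 genes and columns the 15 libraries by group and replicate number; colour gives the percentile of the strongest peak within 1 kb of a listed start or gene end by −log10 q in that library, and grey marks no call. CLDN3, CLDN12, OCLN, MARVELD2 and F11R stay bright across libraries, and 10 genes stay grey throughout.

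Genes with several listed starts differed in which of them were called. TJP1 had a peak within 1 kb of each of its 3 inner starts in 15 libraries, but these starts lie so close together that 1 peak can serve all of them: the windows of 300 bases at the 3 inner starts overlapped a peak in 14, 15 and 0 libraries, with 0 at the innermost. The outer TJP1 start had a peak within 1 kb in 3 libraries (DMSO 24 h, Lgk974 24 h and Lgk974 48 h, 1 library each). CLDN10, whose 2 starts give isoforms of different ion selectivity, was called in 0 libraries at the first start (chr13:95433755) and in 14 at the second (chr13:95552720). CLDN2 likewise had 0 libraries at its first start and 14 at its second. CLDN11 had 12 at its first and 0 at its second, and CLDN14 had 0, 2 and 3 at its 3 starts. CLDN16 had 0 at both of its starts. OCLN, CLDN7 and TJP3 were called in 15 libraries at both of theirs.

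Taking each gene as a whole, with any peak within 1 kb counted as a called end, no gene passed the unadjusted threshold for treatment. Only CLDN11 and CLDN14 were called in 3 to 12 libraries, the range in which an exact permutation test within time could be informative, and 0 of these 2 had an unadjusted exact p under 0.05. Over all genes tested in the same way, 1.88% had more calls with Lgk974 at that threshold and 2.31% had fewer. The other 31 ends were called in nearly all or nearly no libraries, so a list of calls cannot show a difference in their degree of openness.

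Regions near these genes were more often called in every library than regions elsewhere. Of the 608, 147 (24.2%) were called in all 15 libraries and 147 (24.2%) in 1, against 15.9% and 39.5% of all regions. Regions inside or within 50 kb of any protein-coding gene had 18.0% and 36.4%. The median region near the 33 genes was called in 9 libraries, against 3 for all regions and 4 near protein-coding genes. Of the 608 regions, 36 lay at an end of the gene, 214 elsewhere inside it and 358 outside. Claudin regions were called in all libraries in 28.2% of cases and regions of the other 13 genes in 20.8%.

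**Figure D2:**
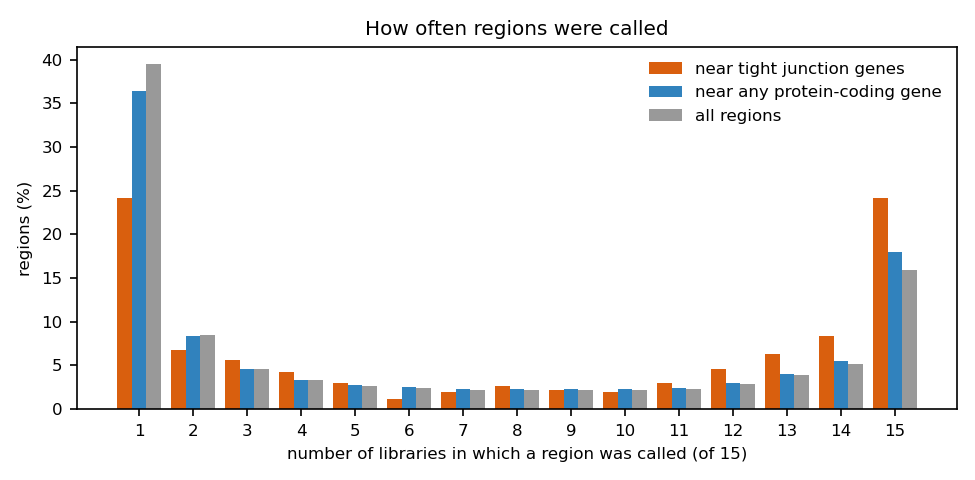
The x axis gives the number of libraries in which a region was called (1 to 15) and the y axis the percentage of regions, for regions near the 33 genes, near any protein-coding gene and in all. Regions near the 33 genes have the tallest bar at 15 libraries (24.2%) and the shortest at 1 (24.2%).

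The strongest shared peaks often lay outside the coding gene. The region at chr7:73822130-73823304, 7692 bp from CLDN4 on the side of CLDN3, stood between the 99.73 and 100.0 percentile in every list, far above the CLDN4 end itself. CLDN14, closed at its starts, had a region 29837 bp away at chr21:36429655-36430784 with percentiles from 98.2 to 100.0, nearer to CHAF1B. CLDN15, closed as well, had one 12906 bp away at chr7:101251726-101252957 with 98.7 to 100.0, nearer to FIS1. CGNL1, weak at its start, had a region inside the gene at chr15:57485747-57486377 with a median percentile of 98.7 (91.2 to 99.7). PARD6B had one 7560 bp away with a median of 98.9, and CLDN6 and CLDN9 shared one at chr16:3003652-3004606 with a median of 97.5, nearer to GREP1. Distance alone does not assign such a region to a gene.

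The stretch holding CLDN3 and CLDN4, which lie side by side on chromosome 7, was dense in constant regions. CLDN3 had 23 regions, 9 of them called in all libraries, and CLDN4 had 28 with 12, of which 8 regions were within reach of both. None of them had an unadjusted exact p under 0.05 for treatment, and 5 and 7 were tested. TJP1 had 44 regions, 10 of them in all libraries, and 17 called in 1 library. PARD3, the longest of the genes, had 74 regions with 10 in all libraries. JAM3 had 13 regions and none in all libraries.

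**Figure D3:**
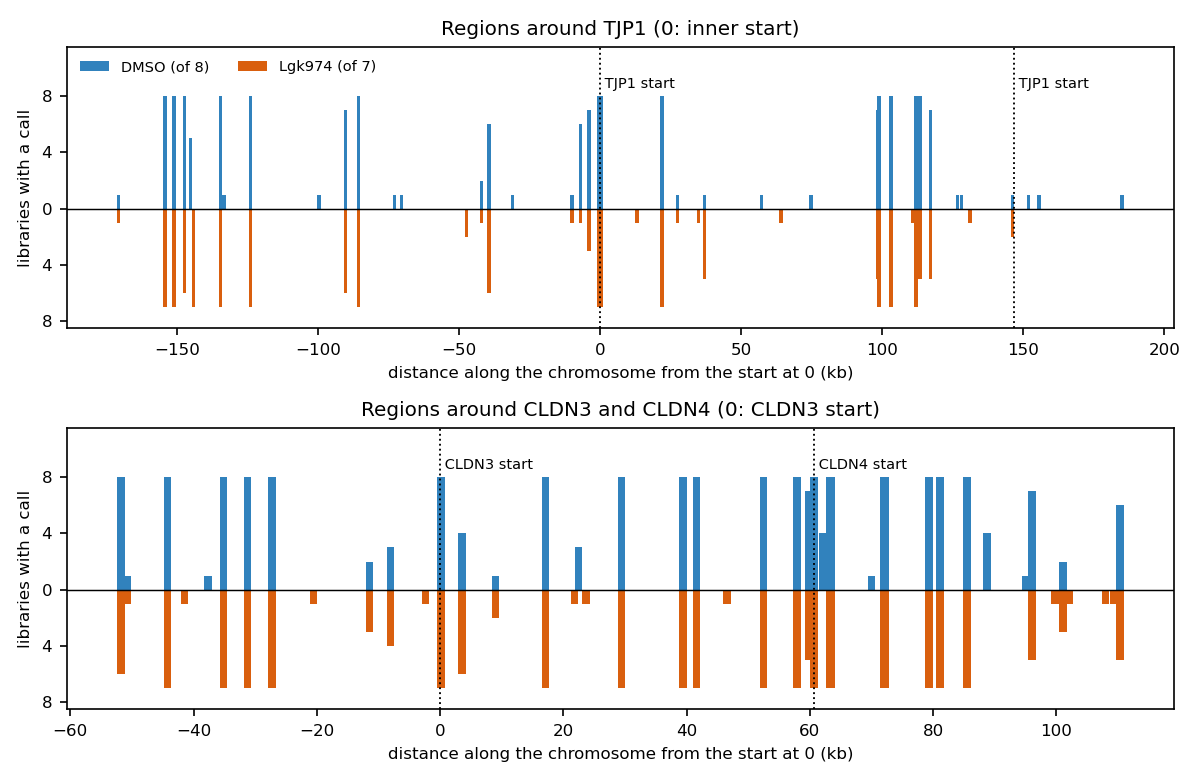
Bars above the line give the number of DMSO libraries (of 8) and bars below it the number of Lgk974 libraries (of 7) with a call in each region, by distance in kb along the chromosome from the start at 0; dotted lines mark listed starts, and narrow regions are drawn wider than they are. Around TJP1, the outer start has 1 and 2 calls and the inner start 8 and 7; around CLDN3 and CLDN4, most tall bars are tall on both sides.

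Calls that differed with Lgk974 were few, and none passed adjustment. Of the 608 regions, 184 were called in 3 to 12 libraries and were tested on the share of libraries with a call, with labels permuted within time (two-sided). Of these, 12 (6.52%) were called more often with Lgk974 and 7 (3.80%) less often at an unadjusted exact permutation p under 0.05. The background over all 60356 regions tested was 2.96% more often and 3.08% less often. Regions called in as many libraries as the members gave 2.60% and 2.69%, or 4.79 and 4.95 regions of 184. After Benjamini-Hochberg adjustment over all regions tested, 0 passed, and the smallest adjusted permutation p was 0.418. The median difference over the 184 regions was 0 points, against −4.17 points over all regions tested. With exchanges only within pairs of the same time and replicate number (7 pairs, exact permutation), 1 region was called more often and 0 less often. A region that differed in 5 or fewer of the 7 pairs could not pass the threshold in this paired test. For such regions the test cannot decide whether the difference holds. Leaving out 1 library at a time gave 5 to 13 regions more often and 2 to 6 less often, and 7 of the 19 kept an unadjusted exact p under 0.05 whichever library was left out (the regions named below near TJP1 at 20787 bp, MARVELD3 at 39767 bp, PARD6B and CGN, both near CLDN7, and the one inside CLDN1).

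The 19 regions that follow are the ones past the unadjusted threshold, of which 12 lay outside the gene, 6 inside away from its end and 1 at an end. Among the 12 called more often, 8 had no call with DMSO. None of the 7 called less often had a call in the short lists of Lgk974 24 h replicate 3 and Lgk974 48 h replicate 3, and the part of list length in those 7 was not tested. Of the 12 called more often, 3 were called in the former library and 5 in the latter.

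TJP1, which encodes a ZO scaffold protein that binds claudins and occludin, had 2 regions in each direction. The region at chr15:29678016-29678580, 20787 bp from TJP1 and 2607 bp from ENTREP2, had a peak in 0 of 8 DMSO libraries and 7 of 7 with Lgk974, 4 at 24 h and 3 at 48 h (unadjusted exact permutation p = 0.000408, the smallest the design allows, and adjusted p = 0.418). Treatments did not overlap at either time, and its peaks ranged from percentile 1.56 to 70.2 of their lists. Next to it, at chr15:29677032-29677407, a region was called in 5 of 8 DMSO libraries (2 at 24 h, 3 at 48 h) and in 0 of 7 Lgk974 libraries (exact permutation p = 0.0306). Inside TJP1, a region at chr15:29859301-29859738 was called in 1 of 8 and 5 of 7 libraries (exact permutation p = 0.0306). Another inside it, at chr15:29815384-29815753, went from 6 of 8 with DMSO to 1 of 7 with Lgk974, the single call being Lgk974 48 h replicate 2 (exact permutation p = 0.0469). TJP3, a paralogue of TJP1, gave the single region at an end among the 19, which is 1 peak region beside a start that was itself always called: chr19:3722495-3723195 was called in DMSO 24 h replicate 3, DMSO 48 h replicate 3 and 6 of 7 Lgk974 libraries (exact permutation p = 0.0396). The end of TJP3 as a whole was called in all 15 libraries.

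Around the claudins, 2 regions gained calls with Lgk974 and 2 lost them at the unadjusted threshold. Upstream of CLDN7, a claudin found along the lateral membrane of epithelia, chr17:7268564-7268986 at 5351 bp had a peak in 2 of 8 DMSO libraries and 7 of 7 with Lgk974 (exact permutation p = 0.0102). At the far edge of the same neighbourhood, 49959 bp from CLDN7 and inside GPS2, chr17:7313172-7313736 was called in 8 of 8 DMSO libraries and in Lgk974 24 h replicate 4 and 48 h replicate 1 only (exact permutation p = 0.0102). Inside CLDN1, chr3:190318703-190319065 was called in 7 of 8 DMSO libraries, missing in 48 h replicate 1, and with Lgk974 in 24 h replicate 1 only (exact permutation p = 0.0102). That region also lies inside the long CLDN16 gene. Near CLDN22, chr4:183328623-183329209 at 8347 bp had a peak in 0 of 4 DMSO libraries and 4 of 4 with Lgk974 at 24 h but in 2 of 4 and 2 of 3 at 48 h (exact permutation p = 0.0469 over both times). That region lay closer to CLDN24, at 6197 bp.

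MARVEL and adhesion genes contributed 5 regions called more often and 1 less often. A pair lay near MARVELD3: chr16:71585992-71586417 at 39767 bp had a peak in 0 of 8 DMSO libraries and 5 of 7 with Lgk974 (exact permutation p = 0.0102), and chr16:71585189-71585937 beside it in 0 and 4 (p = 0.0306 by the same exact test). Both were closer to TAT than to MARVELD3. For F11R, chr1:161069867-161070164, 48715 bp away and inside ARHGAP30, was called in Lgk974 24 h replicate 2 and all 3 Lgk974 libraries at 48 h, and in no DMSO library (exact permutation p = 0.0143). A second one at chr1:161046571-161046925, 25419 bp from F11R and 21 bp from ARHGAP30, was called in 0 and 4 libraries (exact permutation p = 0.0306). Inside CXADR, chr21:17529729-17530022 was called in 0 of 8 and 4 of 7 libraries (exact permutation p = 0.0306). Between MARVELD2 and OCLN, chr5:69454007-69454933, 9677 bp from MARVELD2, had a peak in 8 of 8 DMSO libraries and 3 of 7 with Lgk974 (exact permutation p = 0.0306).

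Polarity and plaque genes completed the set. Near PARD6B, an adaptor of the PAR complex, chr20:50710563-50710987 at 20593 bp, and 19021 bp from RIPOR3, had a peak in 0 of 8 DMSO libraries and 5 of 7 with Lgk974. Near CGN, chr1:151478405-151478816 at 31354 bp and closer to POGZ showed 0 of 8 and 5 of 7 as well (exact permutation p = 0.0102 each). In both, the 2 Lgk974 libraries without a call were the short lists. Inside PARD3, chr10:34473990-34474522 was called in 8 of 8 and 3 of 7 libraries, and chr10:34477289-34477615 in 5 of 8 and 0 of 7 (exact permutation p = 0.0306 each).

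**Figure D4:**
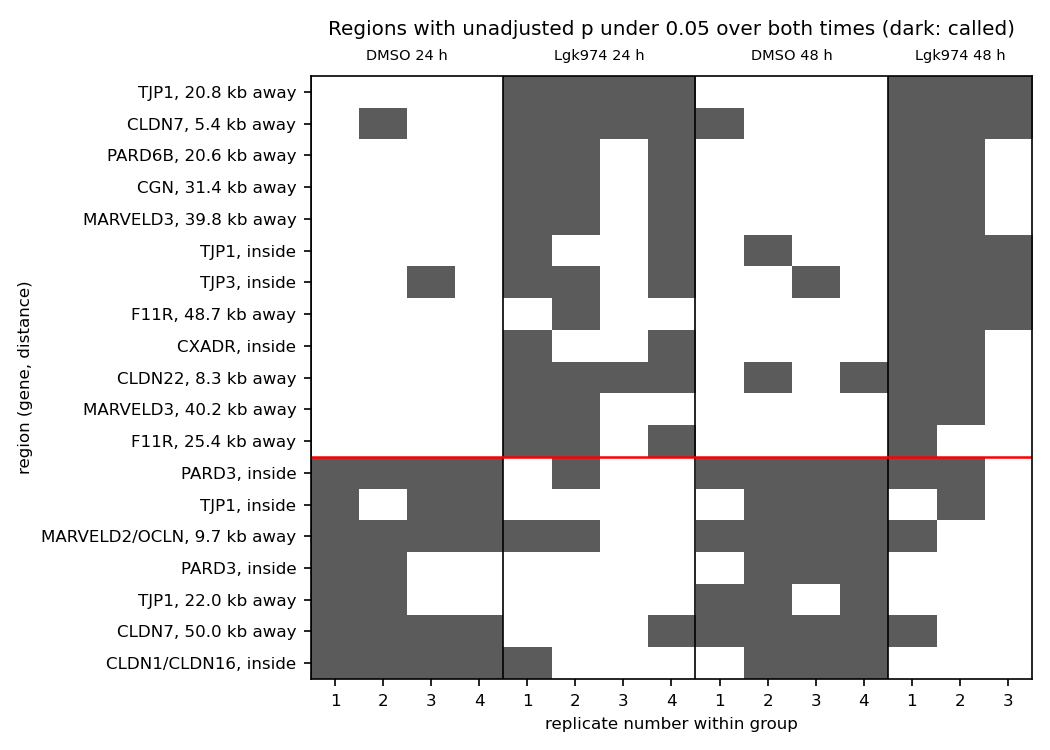
Rows are the 19 regions with an unadjusted exact p under 0.05 over both times, labelled by gene and distance, columns the 15 libraries by group and replicate number, and dark cells mark calls; the red line divides 12 regions called more often with Lgk974 from 7 called less often. The first row, near TJP1, is dark in all 7 Lgk974 libraries and in none with DMSO, and replicate 3 of both Lgk974 groups is blank in all 7 lower rows.

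Complete separation, a call in all libraries of a treatment and in 0 of its counterpart, was rare. At 24 h, 2 of 608 regions (TJP1 at 20787 bp and CLDN22 at 8347 bp) were called in all Lgk974 and no DMSO libraries, where 0.0319% of all regions were. At 48 h there were also 2 (TJP1 again and F11R at 48715 bp), where the background was 0.178%. In the opposite direction 0 regions were found at either time, with a background of 0.0871% at 24 h and 0.292% at 48 h. These counts rested on single libraries: the count at 24 h was 6 without Lgk974 24 h replicate 3, and that at 48 h was 25 when Lgk974 48 h replicate 3 was left out and 4 when replicate 1 of that group was, while the opposite count at 48 h was 4 when the latter was left out. The shares of all regions given here belong to the full set of libraries. None is at hand for these omissions, so the changed counts are not a result about the 608 regions.

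Time alone separated 1 region. A region 43954 bp from CLDN23 on chromosome 8 was called in 0 of 4 DMSO libraries at 24 h and 4 of 4 at 48 h, and in 0 of 4 and 3 of 3 with Lgk974. The background for a call at 48 h only was 0.0458% within DMSO and 0.0628% within Lgk974. No region was called at 24 h only, against 0.0485% and 0.00898% of all regions.

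Over all 608 regions together, every Lgk974 library at 48 h had relatively more calls than any DMSO library of that time. The measure is the detection excess: the mean, over the regions, of called (1) or not (0) minus the calling rate of that library among all regions called in as many libraries, in percentage points, which takes out list length on average. At 24 h the DMSO libraries had excesses of 0.67, −1.08, −4.44 and −1.08 points (replicates 1 to 4) and the Lgk974 libraries 0.91, 1.39, −0.65 and −0.71. The groups overlapped, with means of −1.48 ± 2.14 (SD, n = 4) and 0.23 ± 1.07 (SD, n = 4). Lgk974 was higher in each of the 4 comparisons of equal replicate number, by 0.24, 2.47, 3.80 and 0.36 points. Whether equal numbers mark pairs is not known. At 48 h the DMSO libraries had −1.29, −0.92, −1.12 and −0.78 and the Lgk974 libraries 2.83, 4.03 and 2.25, without overlap, for means of −1.03 ± 0.22 (SD, n = 4) and 3.04 ± 0.91 (SD, n = 3). The difference was 1.72 points at 24 h and 4.07 at 48 h, and no p is given because the genes were chosen with results of these data known. With all lists shortened to their strongest 53610 peaks, the groups overlapped at 48 h, at 0.51 ± 2.53 (SD, n = 4) and 0.74 ± 1.26 (SD, n = 3). With all peaks, smaller gene sets differed at 48 h by 4.51 points (endothelial markers), 4.36 (epithelial markers) and 4.27 (repressors of epithelial genes). Of the epithelial marker regions, 19 are also among the 608. Further scaffolds had 2.55, adherens junction genes 2.50, leukocyte markers 1.31 and tricellular junction genes 0.90. Desmosome genes had −2.45, claudin partners and epithelial factors −1.48 and mesenchymal markers −0.80. Whether the shift is particular to tight junctions was not tested.

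The difference between treatments near the tight junction genes was uneven from gene to gene, and the spread within groups was wide for single genes. Claudin regions differed by 1.10 points at 24 h and 2.80 at 48 h, and regions of the other genes by 2.23 and 5.12. The claudin difference at 24 h rested on DMSO 24 h replicate 3, at −5.75 points. The other DMSO libraries of that time had 0.15 to 0.99 and the Lgk974 libraries −0.90 to 0.80. At 48 h the claudin regions had 0.03 or less in every DMSO library and 1.30 or more in every Lgk974 library, and the others −0.95 or less and 2.82 or more. F11R differed by 10.1 points at 24 h (−5.89 ± 5.38 with DMSO and 4.20 ± 2.20 with Lgk974, SD, n = 4 each) and by 10.9 at 48 h. MARVELD3 differed by 16.3 and 9.87 points over 11 regions, and CXADR by 7.58 and 11.2 over 22. PARD3 differed by −3.96 and 2.79 points (SD within groups, pooled, 3.87) and CLDN2 by −5.01 and −6.27 (pooled SD 12.6). These differences were near or below the spread between libraries, so whether the genes differ in direction cannot be told.

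**Figure D5:**
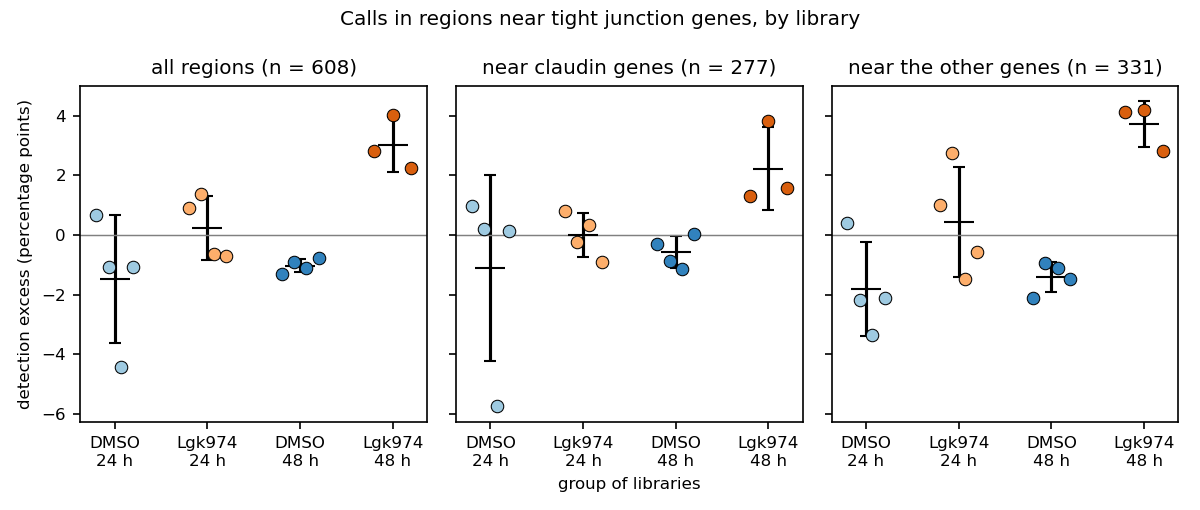
Points are libraries, with the mean and SD of each group; the y axis is the detection excess in percentage points for all 608 regions, the 277 near claudin genes and the 331 near the other genes. At 48 h the 3 Lgk974 libraries lie above the 4 DMSO libraries in each panel, while at 24 h the groups overlap.

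Which regions differed depended on how many peaks each list contributed. With the strongest 53610 peaks of every library, 112 of the regions were tested, of which 12 had more calls with Lgk974 and 9 had fewer (background 7.61% and 6.83%), 0 after adjustment (smallest adjusted permutation p 0.0820). Only 2 of these 21 were among the 19 above, both near CLDN7, and 8 of the 19 had no peak left in any list. The TJP1 region at 20787 bp then had 0 DMSO and 3 Lgk974 calls (exact permutation p = 0.0714). In these shortened lists a region 31323 bp from CGNL1 and 9314 bp from GCOM1, at chr15:57582040-57582590, had a peak in 8 of 8 DMSO libraries and 0 of 7 with Lgk974 (exact permutation p = 0.000408, adjusted p = 0.0820). In the full lists it was called in 8 and 5. A region 3318 bp from CLDN3, at chr7:73773588-73774014, had 0 of 8 and 6 of 7 calls, against 4 and 6 in the full lists. Inside PARD3, chr10:34760591-34761038 had 0 and 6, against 5 and 6 in the full lists.

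The results were also computed without 3 libraries, DMSO 24 h replicate 3 and replicate 3 of both Lgk974 groups. Then 121 regions were tested, of which 15 had more calls with Lgk974 and 0 had fewer, where the background was 6.5% and 1.49%. None of the 7 regions called less often in the full set passed the threshold with these 12 libraries. The 7 had been chosen on the same libraries, so an unchanged sign is no separate support. Inside CLDN1 the difference was −70.8 points, against −75 in the full set (exact permutation p = 0.08). At the TJP1 region 21960 bp away and at chr10:34477289-34477615 inside PARD3 it was −70.8, against −62.5 (exact permutation p = 0.08 each). In GPS2 near CLDN7 it was −58.3 (exact permutation p = 0.0667). The other 3 lay between −33.3 and −45.8, against −54.2 to −58.3 in the full set. The TJP1 region at 20787 bp had an exact permutation p of 0.00333 with these libraries. The excess then was −1.43 ± 0.28 (SD, n = 4) with DMSO and 3.26 ± 0.51 (SD, n = 2) with Lgk974 at 48 h.

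Of 20 further polarity and scaffold genes, 18 were called in all 15 libraries, where 54.8% of protein-coding genes were. PARD6G, a relative of PARD6B, had a peak in 6 of 8 DMSO libraries and 1 of 7 with Lgk974 (unadjusted exact permutation p = 0.0469), and MPDZ in 3 libraries. Adherens junction genes were called in all libraries in 10 of 11 cases, including CDH1, CTNNB1 and JUP, and desmosome genes in 5 of 9, near the share of all protein-coding genes. Genes of the tricellular and immunoglobulin-like junction were called in all libraries in 2 of 6 cases (LSR and ILDR1). CLMP and ESAM were called in 14, ILDR2 in 2 and IGSF5 in 1. All 9 claudin partners and epithelial factors were called in 15 libraries, among them EPCAM, which binds claudins, and GRHL2, a regulator of junction genes. Of 5 repressors of epithelial genes, SNAI1, SNAI2 and ZEB1 were called in 15, TWIST1 in 4 and ZEB2 in 0. At the unadjusted threshold, which 2.96% of all tested regions passed upwards and 3.08% downwards, regions near the adherens junction genes were called more often in 7 and less often in 5 of 75 tested (9.33% and 6.67%). Of the 288 regions near those genes, 13 are also among the 608. Regions near the further scaffolds were called more often in 4 and less often in 3 of 133 (3.01% and 2.26%), and those near desmosome genes in 0 and 4 of 46 (0% and 8.70%). Near the tricellular and immunoglobulin-like junction genes it was 1 and 1 of 40 (2.5% each).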

How the data were processed

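ATAC-seq peak lists of 15 HPAF-II libraries were used, grouped by treatment and time from the sample labels. Per the submitters' processing notes, the build was hg38 and the tools were MACS2, Bowtie2, Trimmomatic, SAMtools, Picard, DiffBind, bedtools, DESeq2, ChIPseeker and HOMER; their roles, order, versions, settings and any shift of reads for the transposase are not given in the sources used. Each deposited peak carries a score, a fold (a ratio over background), a −log10 p and a −log10 q, all made by the authors' peak caller in each library and used only to rank or filter within a list.

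Peaks on chromosomes 1 to 22 and X were merged (1138 others were left out, and 1 damaged line was read as chromosome 1). Gene positions and promoter windows came from RefSeq on GRCh38.p14, the assembly of hg38. Regions called in 3 to 12 libraries were tested by a two-sided exact permutation test within time (2450 assignments) with Benjamini-Hochberg adjustment, tested first on simulated data. The regions named were all those with an unadjusted p under 0.05 over both times or with complete separation at either time; per gene, its end; and promoters of up to 6 genes with an end open in all or no libraries or changed in calls. The genes, lists and rules were chosen with earlier results of these data known. Deviations from group means correlated between libraries of the same number by 0.102 to 0.142 at 24 h (4 pairs, all over 0.1). At 48 h the values were 0.146, −0.03 and 0.084. Libraries of unequal number reached 0.151 at 24 h (DMSO replicate 3 with Lgk974 replicate 4) and 0.099 at 48 h (DMSO replicate 2 with Lgk974 replicate 1). These values do not establish that equal numbers mark pairs at either time, and the replicate blocks rest on the labels alone. Alternatives used equal list lengths, a −log10 q of at least 5, peaks covering 50% of a region, a 10 kb reach, a 3 kb end distance, replicate blocks and omitted libraries. Scripts used scipy 1.17.1, numpy 2.4.6, matplotlib 3.10.9 and pandas 2.3.3 under Python 3.11.15.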

Additional observations from a re-analysis of the deposited data

Results flagged for a closer look

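The detection excess of the 277 claudin regions was −5.75 points in DMSO 24 h replicate 3, far from the other 3 DMSO libraries at 24 h, which lay between 0.15 and 0.99. The gap to the nearest library was 0.875 of the range of the group. Chance alone marks about 1 in 20 groups in this way. Several overlapping sets of regions were screened in each group of 4 libraries, so a single flag among them is not unusual. The same library had the longest list, of 127886 peaks, and the lowest mean overlap with the other libraries, 0.376; the part of either in the claudin value was not tested.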

How the results depend on the processing

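Peaks of equal number per list gave 0 and 2 regions called only with Lgk974 and only with DMSO at 24 h, 6 and 4 at 48 h, and a mean difference in detection excess of 0.548 points, against 2.89 with all peaks. A deposited −log10 q of at least 5 gave 4 regions called less often, 1 separated region with Lgk974 at 24 h, 1 at 48 h and 2 with DMSO at 48 h. Requiring 50% cover gave 1 with Lgk974 at 24 h and 2 with DMSO at 48 h. A reach of 10 kb, which holds fewer regions, left 5 called more often. Without the 3 libraries that stand apart, 0 regions were called less often, and 9 at 24 h and 25 at 48 h (the separated counts added after seeing the data) were called only with Lgk974. For regions called only with Lgk974 or only with DMSO, no share over all regions is at hand in these settings. Their changed counts are therefore not a result about the regions near the tight junction genes. The cause of these shifts was not tested.

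Leaving out 1 library at a time gave 5 to 13 regions called more often, 2 to 6 less often, 2 to 6 and 0 to 2 separated at 24 h, 2 to 25 and 0 to 4 at 48 h, an excess difference of 2.68 to 3.34, and 0 gene ends in every case; fewer libraries also raise the smallest p. The count of regions called more often was 7 without DMSO 24 h replicates 1 or 2, DMSO 48 h replicate 2, Lgk974 24 h replicate 4 or Lgk974 48 h replicates 1 or 2, 6 without Lgk974 24 h replicate 1 or DMSO 48 h replicates 3 or 4, and 5 without DMSO 48 h replicate 1. The count called less often was 2 without DMSO 24 h replicate 1, DMSO 48 h replicates 2 or 4 or Lgk974 48 h replicate 3, 3 without DMSO 24 h replicate 2 or DMSO 48 h replicate 3, and 4 without DMSO 24 h replicate 3, Lgk974 24 h replicates 3 or 4, DMSO 48 h replicate 1 or Lgk974 48 h replicates 1 or 2. Regions called only with DMSO numbered 1 at 24 h without DMSO 24 h replicate 2 or Lgk974 24 h replicates 1, 2 or 4 and 2 without DMSO 24 h replicate 4, and at 48 h 2 without DMSO replicate 1 and 1 without DMSO replicate 3.

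With the replicate block (7 pairs, DMSO 48 h replicate 4 left out, smallest p 0.0156), 1 region was called more often, that near TJP1, and 0 less often, and the excess difference was 2.93. Libraries of equal number were not clearly more alike than others at either time, so the pairing is uncertain. A region that differed in only 4 or 5 pairs could not pass the threshold in this test.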
